A study of Homo sapiens with 9 samples.

Results

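The antigen receptor loci of a human B-lymphocyte line were examined for peaks of γH2AX, the phosphorylated histone variant that marks chromatin around DNA breaks and stalled replication forks. Members were all peaks of the 8 deposited lists that overlap by at least 1 bp the immunoglobulin heavy chain locus IGH (chr14:105586437-106879844), the light chain loci IGK (chr2:88857361-90235368) and IGL (chr22:22026076-22922913), the T-cell receptor α and δ locus TRA/TRD (chr14:21621904-22552132) or the T-cell receptor β locus TRB (chr7:142299011-142813287), in GRCh38 coordinates. There were 296 such peaks among the 213253 autosomal peaks of the 8 lists. IGL held 197 of them, TRA/TRD 78, IGH 15, IGK 6 and TRB 0.

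The lists come from γH2AX ChIP-seq after 24 h in 0.1 μg/mL aphidicolin (APH), 2 mM hydroxyurea (HU) or 200 μM methyl methanesulfonate (MMS), beside untreated cells, with 2 replicates of each condition from independent treatments. APH inhibits DNA polymerase α, HU depletes nucleotides through ribonucleotide reductase, and MMS methylates DNA. All groups share 1 cell line, a lymphoblastoid B-lymphocyte line for which the labels (GM09027A) and the study (GM07027) give different names, so the results describe that line alone. B-cell identity could not be checked, since a peak list holds no expression values. The input library was not analysed here.

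Antigen receptor genes are assembled in developing lymphocytes by V(D)J recombination, in which the RAG recombinase cuts at recombination signals beside variable (V), diversity (D) and joining (J) segments. B cells rearrange the immunoglobulin loci, and after activation the enzyme AID makes further breaks at IGH during class switching between constant (C) genes. T cells rearrange the T-cell receptor loci instead, so in a B-cell line the T-cell receptor loci are comparable segment arrays that normally stay unrearranged. In a B-cell line the stretches between the joined immunoglobulin segments can be deleted, and which of them this line has lost is not given in the sources used here.

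Peak lists ranged from 4327 to 79891 autosomal peaks, with the fewest in untreated cells and the most under HU. The numbers of reads are unknown, so each locus was read against the autosomal mean of its own list. The expected number was the autosomal peaks of the list times the assembled bases of the locus, divided by the 2756 Mb of assembled autosomal bases. The ratio of observed to expected peaks is called the relative density, and tests used its log2 with 0.5 added to both numbers. Of the 247 members under HU, 180 had a q-value of at most 0.05, where the whole HU lists had 78.4% and 60.3% of their autosomal peaks at that limit. Among the 10 members under MMS, the 22 under APH and the 17 of untreated cells 0 reached that limit, and their lowest q-values were 0.346, 0.127 and 0.107 in this order. In the whole lists of these conditions 0.164% to 1.31% of peaks reached it. Members outside HU are therefore peaks that pass only the uncorrected threshold of the peak caller.

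The reference sequence at the strongest reproducible HU site is shown to place it among the receptor segments. A site counted as reproducible when peaks of both replicates overlapped, and sites were ranked by the mean fold enrichment over background. Untreated cells had 3 such sites in the 5 loci, APH had 1, and MMS had none. HU had 59 overlapping pairs of peaks. The line gives the 300 bases of GRCh38 at the centre of the leading HU site on the plus strand, at chr22:22850508-22850807, with the recombination signal heptamer CACAGTG, searched on both strands, in capitals.
HU, IGL at IGLV3-6: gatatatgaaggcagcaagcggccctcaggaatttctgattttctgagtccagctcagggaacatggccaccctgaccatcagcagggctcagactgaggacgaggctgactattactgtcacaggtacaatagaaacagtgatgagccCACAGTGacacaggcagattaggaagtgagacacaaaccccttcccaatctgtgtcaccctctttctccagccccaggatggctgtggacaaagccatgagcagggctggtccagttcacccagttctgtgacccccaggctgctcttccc
The HU site lies over the λ variable segment IGLV3-6, and its heptamer starts at position 22850657 on the plus strand. At a spacer of 23 bases from it, 8 of the 9 bases match the signal nonamer ACAAAAACC, against 2 of 9 at a spacer of 12 bases. Among 27554 windows of 300 bases spaced every 100 kb over the autosomes, 7.18% held the heptamer on either strand. Recombination signals lie beside variable segments, so the heptamer places the site at the segment and is no result about HU.

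IGL, which encodes the λ light chains, was the locus with the most peaks in proportion to its length. The HU lists held 92 and 80 IGL peaks, the APH lists 7 and 6, and the MMS lists and the untreated lists 3 each. The relative density was 3.53 ± 0.0162 (SD, n = 2) under HU, 2.03 ± 0.143 without treatment, 1.27 ± 0.0693 under APH and 0.818 ± 0.0887 under MMS. The replicates of each condition lay close together and the 4 conditions did not overlap, but comparisons of 2 against 2 lists cannot give a p below 0.333. With 3 peaks in each MMS and untreated list, their SDs reflect list size alone and not the error of such small counts. Among autosomal windows as long as IGL, 7.92% were at least as dense as IGL in both HU replicates. The 5 Mb on either side of IGL were also rich in HU peaks, at 2.09 ± 0.0821 times the autosomal mean, and relative to these flanks IGL held 1.69 ± 0.0744 times the expected number.

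TRA/TRD, in which the δ segments lie inside the α locus, was above the autosomal mean under HU by less. The HU lists held 39 and 30 peaks there, the MMS lists 2 and 1, the APH lists 0 and 3, and the untreated lists 3 and 0. Its relative density under HU was 1.36 ± 0.124 (SD, n = 2), a level reached in both replicates by 24.7% of autosomal windows of that length. Its flanks were at 1.27 ± 0.0814 times the autosomal mean, so the density in the locus relative to its flanks was 1.07 ± 0.0291. In the APH and the untreated lists 1 replicate had 3 peaks and the other 0.

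IGH, IGK and TRB were close to empty under HU, where peaks were most frequent. IGH held 2 and 1 peaks under HU with 37.5 and 32.8 expected, IGK held 1 and 2 with 32.2 and 28.2 expected, and TRB held 0 and 0 with 14.9 and 13.0 expected. Among autosomal windows of the same length, 30.9% were as sparse as IGH in both HU replicates and 30.4% as sparse as IGK. TRB had no peak in any of the 8 lists, against 39.8 expected over all of them, as did 19.8% of windows of its length. Empty stretches are thus common on the autosomes, and of all autosomal 100 kb bins 59.2% held no HU peak midpoint in either replicate. The plot of relative density by locus shows IGL and TRA/TRD above and IGH, IGK and TRB below the autosomal mean under HU.

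**Figure D1:**
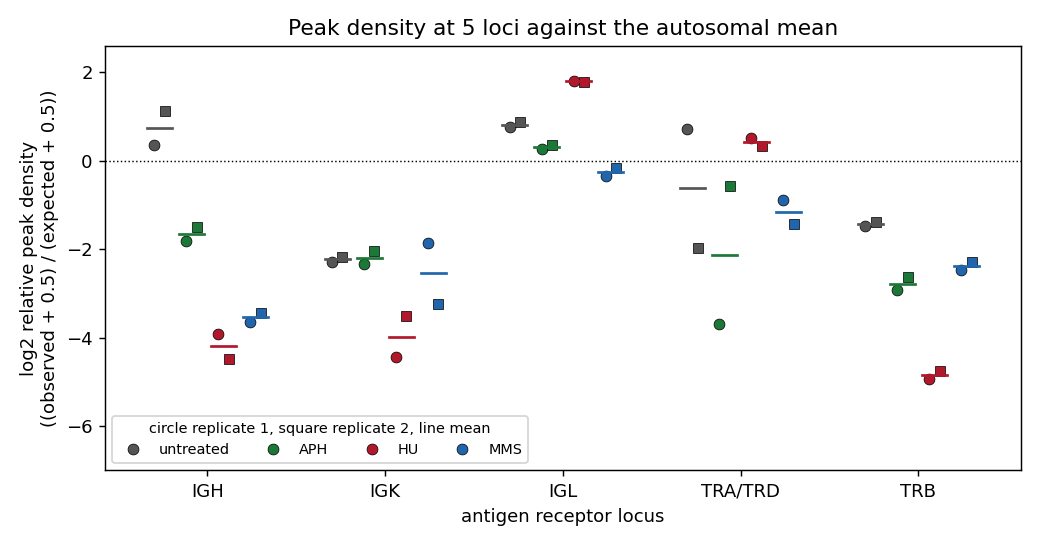
The log2 relative peak density (vertical axis) is plotted for each of the 5 loci (horizontal axis), with circles for replicate 1, squares for replicate 2, colours for the 4 conditions and short lines for the mean of 2 replicates. Under HU, IGL lies at 1.80 and TRA/TRD at 0.43, while IGK lies at -3.98, IGH at -4.20 and TRB, with no peak, at -4.85.

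In untreated cells the order was different at IGH. The heavy chain locus held 3 and 5 peaks with 2.24 and 2.03 expected, a relative density of 1.90 ± 0.795 (SD, n = 2). Under APH it held 2 and 2 peaks with 8.29 and 6.57 expected, and under MMS 0 and 0 with 5.73 and 4.91 expected. Each untreated list held more IGH peaks than any treated list, although every treated list had more peaks in all.

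All 15 IGH peaks lay in the last 19.1 kb of the locus, from 106860745 to its end, beside the most distal variable segments. The other 1274 kb, with 169 of the annotated segment genes, held 0 peaks in every list, against 36.9 and 32.3 expected in the HU lists. The distal end thus held the 3 and 5 peaks of the untreated lists, against 0.0331 and 0.0300 expected, and the 2 and 1 of the HU lists, against 0.554 and 0.484 expected. The split at the first peak was set after the positions were seen, and the counts on either side are a description. Beyond the locus only 3.87 kb of the remaining 163.9 kb of chromosome 14 are assembled, so these peaks lie at the assembled end of the chromosome arm.

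Some positions at this end recurred across lists, all of which were called against input, for which the series has 1 library. The peaks merged into 5 sites, of which 4 were found in more than 1 condition, against 18 of 131 at IGL, 5 of 58 at TRA/TRD and 13.1% of the 145144 merged autosomal sites. Most IGH sites include an untreated peak, however, and among sites that do, 3 of 4 at IGH and 60.8% over the autosomes were found in more than 1 condition, so the recurrence at IGH was near the autosomal level. The site at chr14:106876756-106880581, over the pseudogene IGHVIII-82, was found in both untreated and both APH lists. In untreated replicate 1 its peak had a fold enrichment of 3.11 and a q-value of 0.107, and in untreated replicate 2 a fold of 2.54 and a q-value of 0.942. In APH replicate 1 the fold was 2.93 with a q-value of 0.228, and in APH replicate 2 3.01 with a q-value of 0.127. The site at chr14:106870781-106872002, between segments near IGHV4-80, was found in both untreated lists, APH replicate 2 and HU replicate 1. Its untreated q-values were 0.652 and 0.655. The site at chr14:106860745-106862110, near the pseudogene IGHVII-78-1, was found in both untreated lists, with q-values of 0.817 and 0.974, and in HU replicate 2. The site at chr14:106864575-106866053 overlaps the exon of IGHVII-78-1 and was found in APH replicate 1 and HU replicate 1, where its q-value was 0.0116. In untreated cells 3 of 3 IGH peaks of replicate 1 and 3 of 5 of replicate 2 were found in the other replicate, while over all autosomal peaks these were 764 of 4779 and 840 of 4327.

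The constant genes of IGH, at which class switching takes place, held no peak. IGHM and IGHD, which are expressed first, the γ genes IGHG1, IGHG2, IGHG3 and IGHG4, the α genes IGHA1 and IGHA2, IGHE, and the pseudogenes IGHGP and IGHEP1 each had 0 peaks nearest to them in all 8 lists. Their 273 kb had 14.9 peaks expected over both HU lists. The D and J segments of IGH held 0 peaks as well.

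The authors removed reads with a mapping quality below 40, a score that is low when a read fits several places equally well. The deposited lists contain peaks on alternate sequences of GRCh38, between 1 and 4 in each list, so the reads had been aligned to a reference that holds a further copy of some regions. The share of single-copy sequence was counted as the share of 50-base words that occur once in all sequences of the reference, alternate copies included. It was 88.7% for the autosomes, 95.5% for TRA/TRD, 61.9% for IGL, 46.6% for IGK, 9.12% for TRB and 2.29% for IGH. Of the words of IGH 97.6% and of those of TRB 90.6% also occur on an alternate sequence, against 30.5% at IGL, 4.93% at IGK, 1.96% at TRA/TRD and 4.59% over the autosomes. IGK has a further 268 kb that are not assembled, and only 47.4% of its words are single-copy among the chromosomes alone.

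At IGH and IGL the peaks followed this measure within the locus. At IGH the distal 19.1 kb that hold all peaks are 86.4% single-copy, and the 1274 kb without a peak are 1.03% single-copy. At IGL the longest stretch below 10% in 1 kb steps covers 151 kb in the middle of the locus, is 0.156% single-copy and held 0 peaks in every list, with 4.38 and 3.83 expected under HU. The 447 kb before it held 46 and 40 HU peaks and the 299 kb after it 46 and 40. Of the 296 members, 277 were at least 90% single-copy and 0 were below 10%. These shares were not counted over all autosomal peaks, so they do not set the loci apart. The C genes of IGH lie on sequence that is 0.664% single-copy, so the lack of a peak there cannot be read as a lack of γH2AX. The part of this measure in the sparse loci was not tested, since the reads were not analysed here.

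**Figure D2:**
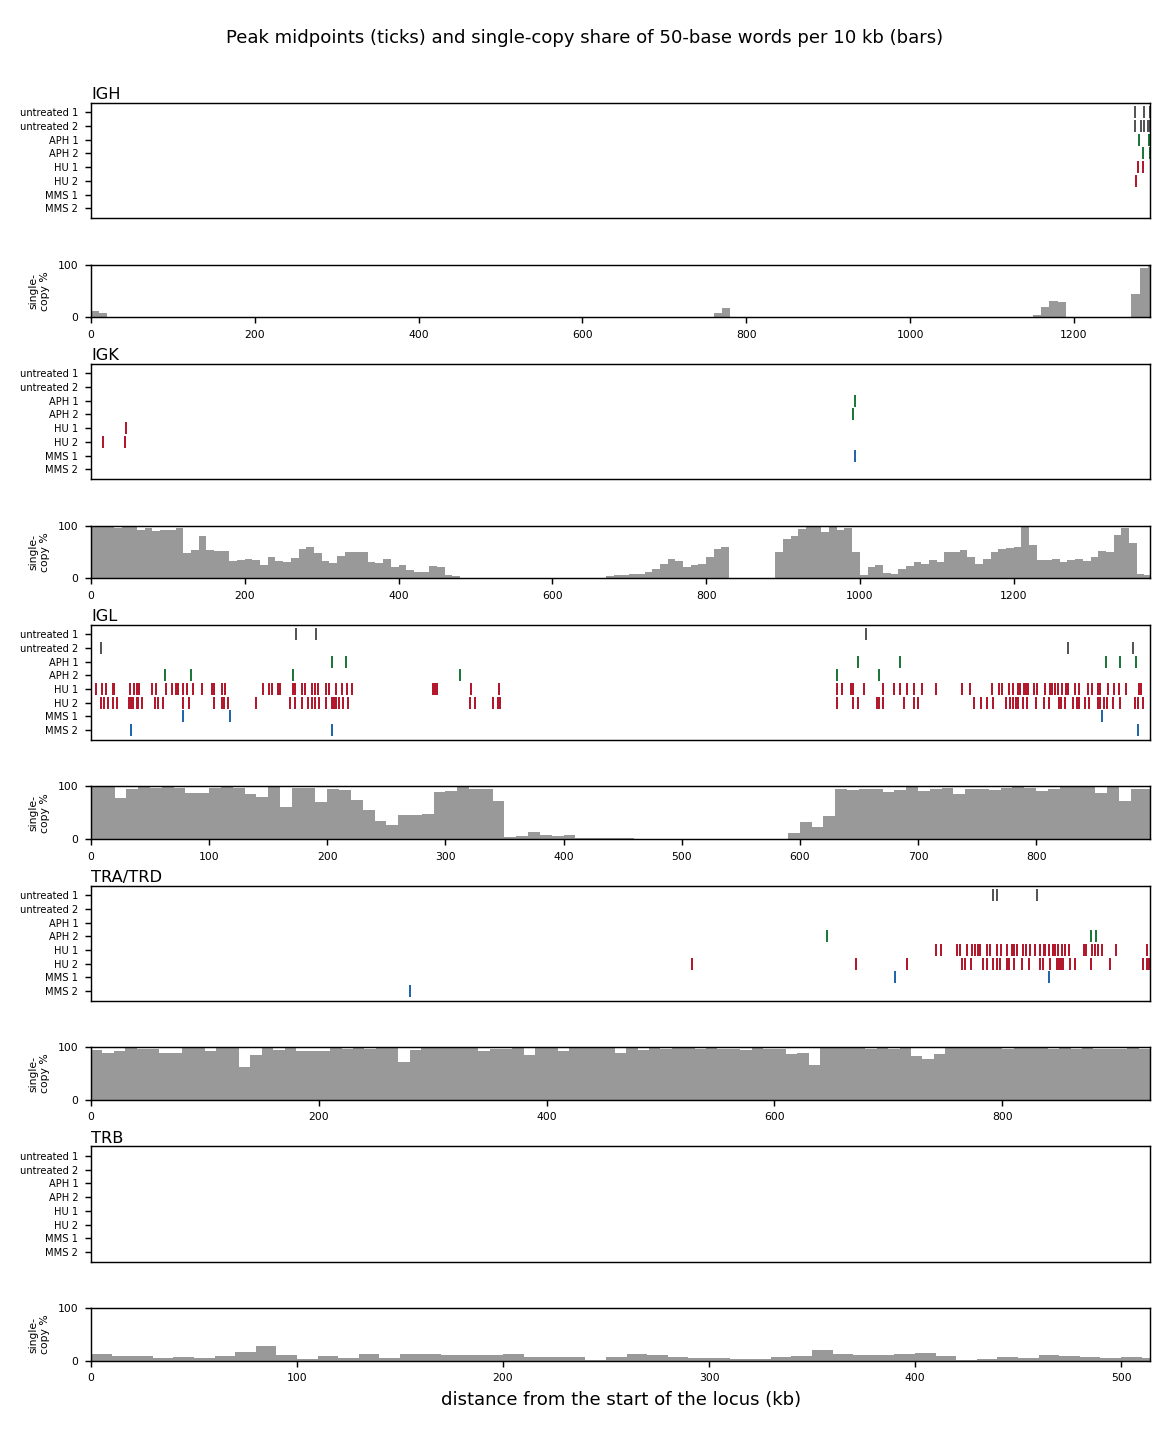
For each locus the upper panel shows the midpoint of every peak as a tick, with 1 row per list, and the lower panel shows the percent of 50-base words that are single-copy in the reference in 10 kb steps, both against the distance from the start of the locus in kb. Ticks stand over the tall bars at the right end of IGH and at both sides of IGL, and TRB with 9.12% single-copy words has none, while TRA/TRD is 95.5% single-copy and has ticks mainly in its right part.

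Over the autosomes, 99.5% of the 1068 bins of 100 kb with under 10% single-copy words had no HU peak midpoint in either replicate, against 57.4% of the bins with at least 90%. The 5 loci contain 17 bins of the first kind, 12 in IGH, 2 in IGL and 3 in TRB, and all 17 were without a peak in all 8 lists. In the 13 bins of the loci with at least 90%, which lie in IGL and TRA/TRD, 5 (38.5%) held no HU peak in either replicate, and these 5 lie in TRA/TRD.

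**Figure D3:**
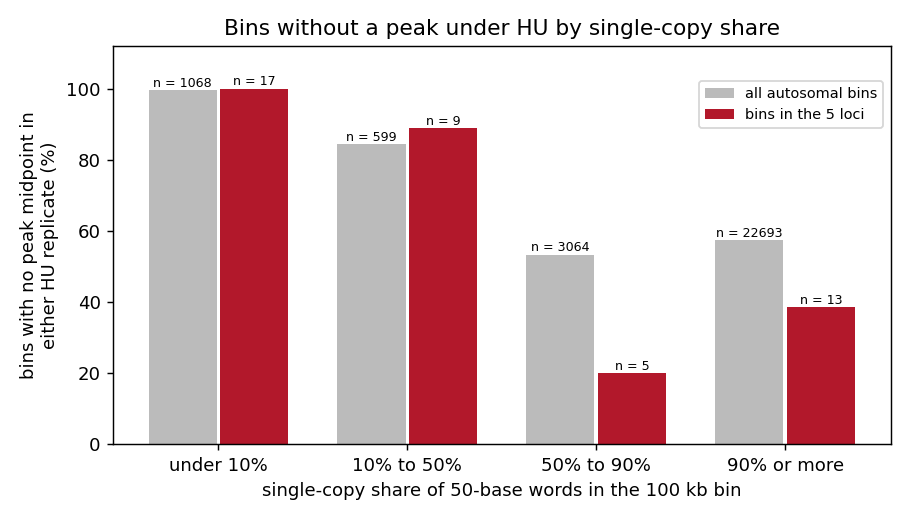
Bars give the percent of 100 kb bins with no peak midpoint in either HU replicate (vertical axis, from 0) by the single-copy share of the bin (horizontal axis), in grey for all autosomal bins and in red for bins in the 5 loci, with the number of bins above each bar. Below 10% single-copy nearly all autosomal bins (99.5%) and all 17 bins in the loci were without a peak.

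When expected numbers were computed from single-copy bases, IGH turned from below to above the autosomal mean under APH and HU. IGH had 29.6 kb of such bases, and its relative density became 73.5 ± 30.8 (SD, n = 2) for the untreated lists, 10.6 ± 1.72 for APH, 1.62 ± 0.626 for HU and 0 for MMS, all from the distal end. These ratios stand on few peaks, since 0.0580 and 0.0525 were expected in the untreated lists. Under APH 0.214 and 0.170 were expected, and under HU 0.969 and 0.848. TRB had 46.9 kb, for which 4.09 peaks were expected over the 8 lists and 0 were found. IGK remained sparse, with 0.0971 ± 0.0537 under HU over 517 kb of single-copy bases. IGL rose to 5.05 ± 0.0232 and TRA/TRD changed to 1.26 ± 0.115.

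The 3 immunoglobulin loci were then compared with the 2 T-cell receptor loci within each list. The log2 relative density differed by 0.83 on average, higher at the immunoglobulin loci in 6 of 8 lists, and this did not pass the test (exact sign-flip permutation test over 8 lists, two-sided p = 0.148, smallest possible p = 0.00781). The difference was 3.24 in APH replicate 1 and 3.05 in untreated replicate 2, the lists with no T-cell receptor peak, and lay between -0.28 and 0.30 in the other 6. Under HU, where counts were large, it was 0.09 and 0.27. With single-copy bases as the denominator the difference was 1.74, positive in 8 of 8 lists, at the smallest p of the design (exact sign-flip permutation test, p = 0.00781). IGL against TRA/TRD alone, a pair chosen after IGL had been seen to be the densest locus and so given with no test, differed by 1.54, above 0 in 8 of 8 lists. Without IGL the difference turned to -1.02 (exact sign-flip permutation test, p = 0.289). Without TRB, which had no peak, it was 0.25, above 0 in 2 of 8 lists (exact sign-flip permutation test, p = 0.570). The mean difference thus depended on which loci entered it, IGL and TRB above all. With the mean of the chromosome or of the 5 Mb flanks as the expectation it was 0.34 and 0.25, above 0 in 2 and 3 of 8 lists.

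Treated cells were compared with untreated cells in relative density. At the immunoglobulin loci the mean over the 6 treated lists was lower by 1.25 on the log2 scale, which did not pass the test (exact permutation test of 6 against 2 lists, two-sided p = 0.0714, smallest possible p = 0.0357). The untreated lists were at 0.06 and 0.58, HU at -0.01 and -0.01, APH at -1.04 and -0.86 and MMS at -1.75 and -1.90. The HU values combine a high density at IGL with low densities at IGH and IGK. Without IGH the difference was -0.22 (exact permutation test, p = 0.714), and without IGL it was -3.25 (exact permutation test, p = 0.0357). Without IGL only IGH and IGK remain, where counts were low in every list while the expected numbers grew with list size. Untreated lists are the smallest, so a lower treated value follows there in part from list size. TRB alone, with 0 peaks in all lists, gave -1.91. At the T-cell receptor loci the treated lists differed by -0.42 (exact permutation test, p = 0.786), and the untreated lists, at 0.22 and -2.47, were themselves far apart. Without untreated replicate 1 that difference was 0.92 and without APH replicate 1 it was 0.12.

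Constant and variable parts were compared by giving every base to the nearest annotated segment gene. Over the 3 immunoglobulin loci the constant part differed from the variable part by -0.16 on the log2 scale, above 0 in 3 of 8 lists (exact sign-flip permutation test, two-sided p = 0.695). Of the constant part most bases, 273 kb, belong to IGH, where no peak was recorded. Without IGH the difference was 1.56, above 0 in 8 of 8 lists (exact sign-flip permutation test, p = 0.00781). It then contrasts 12 peaks near C genes, all at IGL, with the sparse IGK and the dense IGL variable parts. Untreated replicate 1, APH replicate 2 and MMS replicate 1 held 0 peaks near C genes, with 0.0269, 0.0790 and 0.0688 expected at IGL. The value added to observed and expected numbers holds their constant part near 0, above their variable part. Their positive sign is no result about C genes, so 8 of 8 and its p cannot decide the question. At IGL alone the difference was 0.62, above 0 in 6 of 8 lists (exact sign-flip permutation test, p = 0.172, a comparison added after the data were seen). MMS replicate 1 counts among these 6 in the same way.

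At IGL, HU peaks were dense on both sides of the 151 kb stretch without peaks, and the ratios near J and C genes were higher than over the variable part. Over the variable part, HU replicates held 87 and 75 peaks, a relative density of 3.46 ± 0.0370 (SD, n = 2). Near the J segments they held 4 and 3, with 0.575 and 0.503 expected, and near the C genes 4 and 4, with 0.450 and 0.394 expected. The C part spans 15.5 kb only, so its relative density of 9.51 ± 0.895 stands on few peaks, and a peak that crosses a border counts in both parts. Counted by midpoint, the J part held 3 and 2 peaks, a relative density of 4.60 ± 0.880, and the C part 2 and 3, a relative density of 6.02 ± 2.24. The V part of IGL is 60.8%, its J part 91.3% and its C part 87.0% single-copy. Over single-copy bases the relative density under HU was 5.05 ± 0.0540 in the V part, 6.27 ± 0.684 in the J part and 9.69 ± 0.912 in the C part. The share of the single-copy measure in the higher ratios near J and C genes was not tested. The other lists had 4 peaks near C genes in all, 1 in untreated replicate 2, 2 in APH replicate 1 and 1 under MMS.

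TRA/TRD differed more between its parts, and its V part is 95.1%, its D and J part 98.6% and its C part 96.4% single-copy. Near V segments the HU lists held 17 and 15 peaks, a relative density of 0.723 ± 0.00415 (SD, n = 2). Near D and J segments they held 20 and 13, a relative density of 5.78 ± 1.21, and near the constant genes TRAC and TRDC 3 and 4, a relative density of 10.7 ± 3.14 (9.09 ± 0.855 by midpoint). The first 528 kb of the locus, with 40 segment genes and 95.2% single-copy words, held 0 HU peaks in both replicates and 1 peak in all lists, from MMS replicate 2. Stretches of that length without a HU peak made up 39.2% of autosomal windows. The remaining 403 kb held 39 and 30 HU peaks, with 11.7 and 10.2 expected. The HU peaks went on past the locus, with 32 in its last 100 kb and 47 in the next 100 kb, both lists summed, while 19 lay in the 100 kb before the locus and 0 in its first 100 kb.

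**Figure D4:**
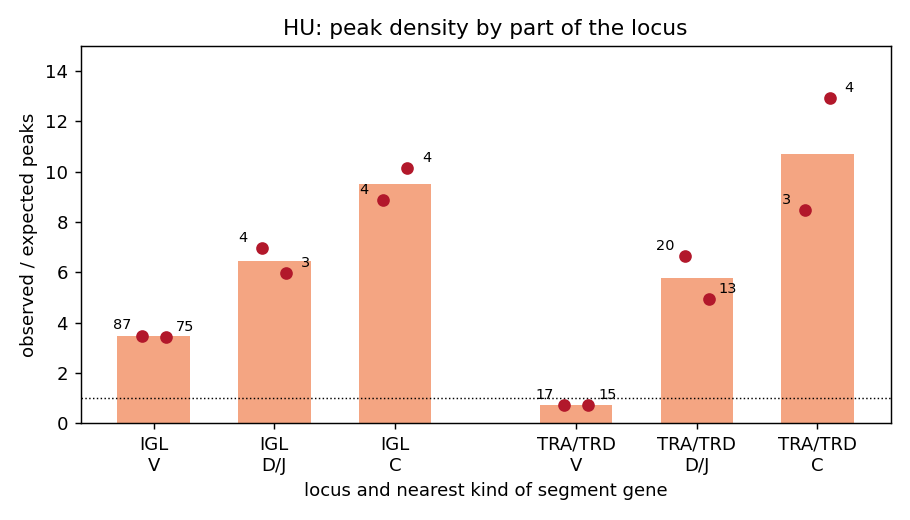
Bars show the mean ratio of observed to expected HU peaks (vertical axis, from 0) for bases nearest V, D or J, and C segment genes of IGL and TRA/TRD (horizontal axis), dots the 2 replicates with their number of peaks, and the dotted line the autosomal mean. The V part of TRA/TRD lies at 0.723, below the line, and the other 5 parts lie above it.

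The segment genes nearest to most HU peaks were TRDV2 at TRA/TRD and IGLVIV-53 at IGL. Counts by nearest segment were not scaled to the bases around it, so a segment beside a long gap collects more peaks. Reproducible HU sites lay up to 12818 bp from TRDV2 and up to 17442 bp from IGLVIV-53. The ranking therefore does not show a higher density at these segments. TRDV2, a variable segment of δ chains, had 13 and 10 HU peaks nearest to it and 2 in untreated replicate 1, none of which overlapped the segment itself. IGLVIV-53, a λ variable pseudogene, had 7 and 8 under HU and 2 in APH replicate 1, also APH's highest count at IGL. IGHVII-78-1 led at IGH under HU with 1 and 1, and IGKV5-2 led at IGK with 1 and 1. In untreated cells IGHV4-80, IGHVII-78-1 and IGHVIII-82 each had 1 and 1, IGHVIII-82 led under APH with 1 and 1, and IGKV2D-40 had 1 and 1 under APH and 1 in MMS replicate 1. Under MMS no segment gene had more than 1 peak nearest to it, nor did any at IGL in untreated cells or at TRA/TRD under APH.

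Most peaks lay between segment genes, and 48 of the 296 overlapped one. The share of the loci inside segment genes was not counted, so this is no result about the segments. Segment genes overlapped by a peak in both HU replicates were the constant genes TRAC and TRDC, the joining segments TRDJ4 and TRAJ40, and the λ variable segments IGLV3-6 and IGLVI-56. Of 58 variable segments at TRA/TRD 0 were overlapped in any list, against 14 of its 67 D and J segments and 18 of the 73 variable segments of IGL. At TRA/TRD 40 of the variable segments lie in the first 528 kb, which held 0 HU peaks. Its contrast between segment kinds thus cannot be told apart from position along the locus.

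The reproducible HU sites were led by IGL. The site over IGLV3-6 (chr22:22849233-22852082), whose central sequence is printed above, had fold enrichments of 3.45 and 2.89 with q-values of 0.00145 and 0.0244. The site over IGLVIV-66-1 (chr22:22057771-22060827) had folds of 3.16 and 3.17. A site of 6276 bp at chr22:22230378-22236653, downstream of IGLVIV-53 and reaching the exon of a processed pseudogene, had 2.80 and 3.29, and the site over IGLV3-4 (chr22:22857594-22860947) had 2.81 and 3.17. At TRA/TRD the leading site, chr14:22469940-22472584, lay 242 bp from TRDV3 in an intron of the long non-coding RNA gene TRD-AS1, with 2.85 and 3.15, and a neighbouring peak of replicate 2 with a fold of 3.11 overlapped the same peak of replicate 1. At IGL, 38 of 92 peaks of replicate 1 (41.3%) and 42 of 80 of replicate 2 (52.5%) were found in the other replicate, and at TRA/TRD 14 of 39 (35.9%) and 15 of 30. Over all autosomal HU peaks these shares were 43.3% and 51.0%, close to those at the loci.

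The heights of the HU peaks were close to those of the whole lists. The median fold enrichment was 2.73 over the 172 IGL peaks and 2.56 over the 69 TRA/TRD peaks, and the medians of the whole HU lists were 2.70 and 2.77.

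Among 110 annotated genes in the loci that are not receptor segments, 11 overlapped a peak in both replicates of a condition, in each case HU. The share over all autosomal genes was not counted, so this number does not set the loci apart. The counts per gene below are not scaled to gene length. TRD-AS1, which spans 287 kb of the δ region and shares it with the segments named above, had 31 and 23 HU peaks. At IGL the non-coding RNA gene ENSG00000289120 had 8 and 7, the part of PRAMENP inside the locus 3 and 3, and IGLL5, a protein-coding gene whose annotated span includes IGLC1, 2 and 1.

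At IGK 3 peaks lay within the first 46.0 kb of the locus and 3 beside IGKV2D-40, at the proximal side of the distal variable cluster. Under HU, 1 peak in replicate 1 and 1 in replicate 2 lay near IGKV5-2 without overlapping, with q-values of 0.0425 and 0.0247, and a further peak of replicate 2 lay 11273 bp from IGKJ1. The 2 APH peaks and the MMS peak lay near IGKV2D-40 in the distal copy of the variable cluster, where a peak of APH replicate 1 overlapped that of MMS replicate 1. Neither untreated list held a peak at IGK, with 1.92 and 1.74 expected, too few for a lower density to be detectable in these lists.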

How the data were processed

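γH2AX ChIP-seq peaks of 8 libraries, 2 each of untreated, APH, HU and MMS treated cells, were analysed as deposited. The authors aligned reads to GRCh38 (hg38) with Bowtie2, discarded PCR duplicates and reads below mapping quality 40, and ran MACS2 in broad mode for each replicate against input at a p-value of 0.001. Versions are not given in the sources used here. The deposited lists hold the fold enrichment (a ratio) and the −log10 of the p-value and of the q-value, unchanged from the authors' peak caller. Read numbers are not part of a peak list, so sequencing depth is unknown here and precision is known only from the spread of 2 replicates. The authors' replicates are independent treatments of 1 cell line. The tests pool lists of unlike treatments and sizes. Their p-values thus measure the spread between lists of that line, across conditions as well as between replicate cultures.

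No autosomal peak ended beyond its chromosome in the GRCh38 reference used here (0 in 8 lists). Segment genes, including pseudogenes, were taken by symbol from GENCODE release 44, and each base of a locus was given to the nearest V, D or J, or C gene. Peaks were counted at an overlap of at least 1 bp and compared with the autosomal mean of the list over assembled bases, with 0.5 added on the log2 scale. Lists were the units of all tests. Single-copy words of 50 bases were counted in all reference sequences, at every base of the loci and every 1000 bases of the autosomes. Windows and bins were used where at least 90% was assembled. The calculations were tested on simulated lists and sequences. Python 3.11 tools were numpy, pandas and matplotlib.

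Text names the reproducible sites with the highest mean fold (at most 6 per condition), the segment gene nearest to most peaks in each condition and locus, all IGH constant genes, and other genes with a peak in both replicates. The members and lists were chosen with earlier results of these data known. The single-copy measure within the chromosomes, the recurrence over all autosomal sites, the comparison of IGL and TRA/TRD alone, and the stretches at the IGH end, in IGL and in TRA/TRD were chosen after seeing the data. Alternatives were the stronger 50% of peaks, a fold of at least 3, 4327 peaks per list, midpoints, covered bases, the mean of the chromosome or of 5 Mb flanks, single-copy bases, a pseudocount of 1, spans between outermost genes, and leaving out each replicate or locus. The sequences at the leading sites of untreated and APH treated cells are not reported here.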

Additional observations from a re-analysis of the deposited data

How the results depend on the processing

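The difference between immunoglobulin and T-cell receptor loci (0.83) had a positive mean in all settings tried except without IGL (-1.02), but was above 0 in few lists without TRB (0.25, 2 of 8 lists), with the mean of the chromosome (0.34, 2 of 8) and with 5 Mb flanks (0.25, 3 of 8). Among 25 settings beside the main one, it passed the test with single-copy bases as denominator (1.74) and with words single-copy in the chromosomes alone (1.22, added later). It also passed without IGH (1.15), without IGK (1.30) and without TRA/TRD (2.25). Over the 8 lists IGH held 15 peaks with 100 expected and IGK 6 with 85.9 expected. Leaving out either removes a sparse immunoglobulin locus while the empty TRB stays, so these 2 settings are no separate support. Without TRA/TRD only TRB remains, which held 0 peaks in all 8 lists. Its values then follow list size alone, so that setting says nothing about the T-cell receptor loci. For IGL against TRA/TRD alone, chosen after IGL was seen to be dense, the difference was 1.54. Leaving out each replicate gave 0.48 to 0.99. The treated against untreated difference at the immunoglobulin loci (-1.25) was negative throughout, from -3.25 without IGL, where it passed the test but follows list size in part, to -0.20 at IGL alone, and lay between -1.51 and -0.99 without each replicate. At the T-cell receptor loci (-0.42) it was -0.54 for peaks of a fold of at least 3, a setting that says nothing about the loci since the 6 lists outside HU then hold 0 peaks there and their values follow list size alone, and lay between -1.77 and 0.92 without each replicate, above 0 without untreated replicate 1 (0.92) or APH replicate 1 (0.12).

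The constant against variable difference (-0.16) had no stable direction. It was above 0 for the stronger 50% of peaks (0.39), a fold of at least 3 (0.23), equal numbers of peaks (0.22), the mean of the chromosome (0.060), single-copy bases (0.45), a pseudocount of 1 (0.0082), without IGH (1.56, past the test, but with peaks near C genes in only 5 of 8 lists), without IGL (0.13) and at IGL alone (0.62). Leaving out each replicate gave -0.49 to -0.0019. The causes of these shifts were not tested beyond the settings themselves.

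In a further setting the replicate number was a block for both treated comparisons. For both within-list comparisons the 2 replicates of each condition were averaged instead. The differences were the same by construction, 0.83, -1.25, -0.42 and -0.16, with exact permutation p-values of 0.25, 0.125, 0.812 and 0.625. The smallest p is then 0.125 for both within-list comparisons and 0.0625 for both treated comparisons, so none could pass the test in this setting. Deviations of same-numbered lists over the 5 loci correlated between -0.969 and 0.279, so the numbers were not taken to pair the lists. With few peaks outside HU and no read numbers, absence of a peak is not evidence that γH2AX was absent.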

Other observations

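The T-cell receptor γ locus, TRG (chr7:38239580-38368169, 129 kb with 21 segment genes), is not among the 5 loci. It held 10 and 4 HU peaks with 3.73 and 3.26 expected, 1 peak in APH replicate 1 with 0.824 expected, and 0 peaks in the other 5 lists.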
